A study of Arabidopsis thaliana with 10 samples.

Results

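Gene expression shared by the 2 CRY2-altered genotypes, cry2-1 and CRY2oe, was compared with that of the other 3 genotypes of the series. By their titles, 4 of the 10 libraries were from cry2-1 or CRY2oe (2 biological replicates each) and 6 were from Col-0 (WT), UBP13oe and ubp12ubp13 (2 each), which are called the rest. CRY2 is lost in cry2-1 and overexpressed in CRY2oe, UBP13oe overexpresses the deubiquitinase UBP13, and ubp12ubp13 is labelled as a double mutant of UBP12 and UBP13. All 10 libraries were made from whole seedlings of the Columbia ecotype, 4 days old, kept in constant blue light at 1 µmol m-2 s-1. The labels do not give the promoter of either overexpressor, the number of independent lines, or whether CRY2oe was made in a cry2-1 background. Nothing in the labels says that replicates were separate cultures, so p-values measure the spread between these samples, which may be technical.

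CRY2 is a flavoprotein photoreceptor of the nucleus that absorbs blue light. In blue light it is active as oligomers, inhibits the COP1 and SPA ubiquitin ligase complexes, binds transcription factors of the bHLH family such as PIFs and CIBs, shortens the hypocotyl in weak blue light and promotes flowering in long days. It is itself ubiquitinated and degraded in blue light. A gene that CRY2 activity moves in 1 direction would be lower in one of these lines and higher in the other, whereas the comparison here asks which transcripts stood on the same side of the rest with CRY2 lost and with CRY2 in excess.

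Depth was estimated at 15800000 to 31000000 fragments per library, with the 4 CRY2-altered libraries at 26100000 to 27800000. At these depths 3 fragments on 1 kb of transcript equal 0.0968 to 0.19 FPKM (fragments scaled by transcript length and by mapped fragments). CRY2 (AT1G04400) was listed at 0 and at 0.0187 FPKM in cry2-1 and at 3920 and 3810 FPKM in CRY2oe, against 84 to 120 FPKM in the rest. UBP13 was at 69 and 66.1 FPKM in UBP13oe, but at 24.2 and 23.6 FPKM in the libraries labelled ubp12ubp13, against 27.1 and 28.3 FPKM in WT. UBP12 was at 397 FPKM in the first of these 2 libraries and has a failed estimate in the other, which was left out of the fit for that gene, so neither gene was shown to be lost by these values. Leaf and root transcripts were both present: the 55 nuclear photosynthesis genes summed to 59200 to 122000 FPKM in every library and the 30 root markers to 462 to 1070 FPKM. Of 29 root markers and 16 seed markers tested, 0 rose and 0 fell by the rule given below, which called 4.54% of all genes. That rule needs both lines on the same side of the rest, so it cannot show a difference between them. The root markers summed to 1070 and 1040 FPKM in cry2-1, 483 and 511 FPKM in CRY2oe and 680 and 625 FPKM in WT. The 15 pollen markers summed to at most 4.98 FPKM.

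A gene was said to rise or fall when limma's test of the mean of the 2 CRY2-altered genotypes against the mean of the other 3 gave a Benjamini-Hochberg adjusted p of 0.05 or less and all 4 CRY2-altered libraries lay beyond all 6 others. Of 19954 genes tested, 545 rose (2.73%) and 360 fell (1.8%). The median change on the log2(FPKM + 1) scale was 0.37 among genes that rose and -0.39 among genes that fell, against 0.02 over all genes. A change of 2-fold or more on that scale was reached by 81 genes that rose and 27 that fell. The adjusted p alone called 7680 genes (38.5%), and in 6775 of these the 4 libraries overlapped the other 6, including 1236 in which cry2-1 and CRY2oe lay on opposite sides of the rest. The shared genes are therefore a small part of what differed on average. CRY2oe against cry2-1, a contrast independent of the first, called 7470 genes (37.4%).

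The unit of replication decided how many genes were called. Only 5 genotypes stand behind the 10 libraries, and the estimated correlation of libraries within a genotype was 0.853. With no genotype term, so that differences between genotypes count as spread, 36 genes rose and 19 fell (0.276% together), all 55 of them among the 905. That fit still treats libraries of a genotype as independent, so its p-values do not allow for their correlation. With genotype as a random block, 2 rose and 4 fell (0.0301%). Rescaling also moved the split, although the median of all genes moved by less than 0.1. The share of called genes that rose was 60.2% as deposited, 50.2% after median-of-ratios rescaling (502 rose and 498 fell) and 75.3% over nuclear genes scaled to a common sum (819 rose and 268 fell). Of the 905 genes, 624 and 725 were called again under these rescalings. Of the 905, 693 were also called with WT alone as the rest (427 that rose and 266 that fell), a comparison that called 26.6% of all genes. Without WT replicate 1, 546 genes fell, and without WT replicate 2, 548 fell, against 360. The separation is easier to meet with 1 library fewer, which by itself can add calls.

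Most shared changes were larger in cry2-1. Of the 905 genes, 618 had the larger change in cry2-1. The change differed between the lines past the threshold in 228 (25.2%), and 202 of these 228 had the larger change in cry2-1. Over all genes the share was 37.4%. The rule for the 905 leaves out genes with the lines on opposite sides, so the shares cannot be compared directly. Among nuclear genes that rose, the genotype of the rest nearest to the altered lines was UBP13oe in 232, WT in 176 and ubp12ubp13 in 80. Among nuclear genes that fell, it was WT in 209, UBP13oe in 78 and ubp12ubp13 in 73. WT and the other lines thus did not take the same place beside the altered lines for genes that rose and genes that fell.

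**Figure D1:**
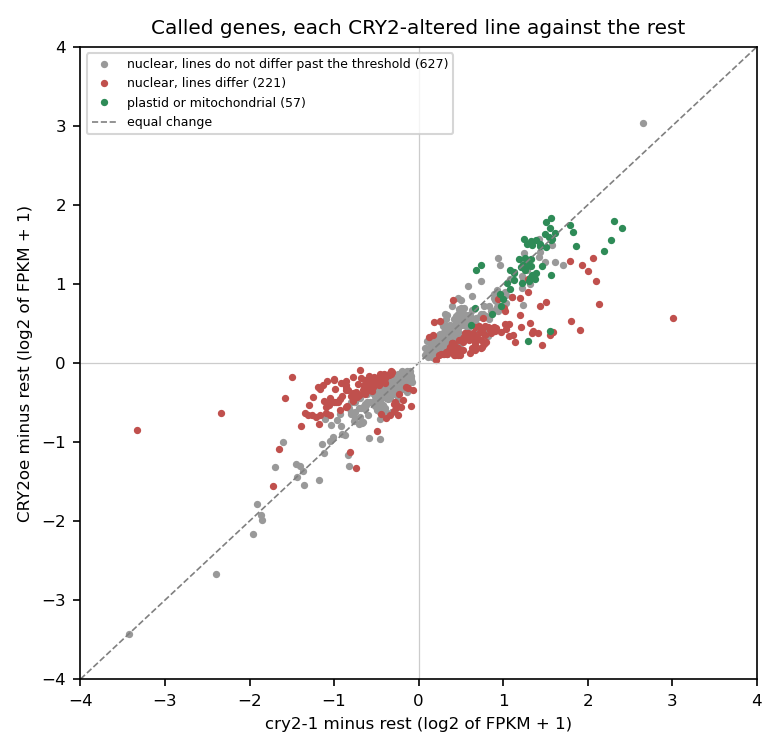
Change in CRY2oe (y axis) against change in cry2-1 (x axis), each minus the rest in log2 units of FPKM + 1, with 1 point per called gene. The red nuclear genes whose change differed between the lines lie mostly nearer the x axis, where the change in cry2-1 was larger. The change differed between the lines past the threshold in 7 of the 57 green organelle genes, and 4 genes beyond the axes are not drawn.

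The largest falls were at the genes that follow CRY2 on chromosome 1. The malate dehydrogenase gene c-NAD-MDH1 (AT1G04410, TAIR10 chromosome 1, 1189078 to 1191412), whose enzyme interconverts malate and oxaloacetate in the cytosol, had a listed value of 0 in the cry2-1 libraries and 0.114 and 0.0564 FPKM in CRY2oe. It was at 435 and 443 FPKM in WT, 469 and 469 in UBP13oe, and 364 and 358 in ubp12ubp13. The next gene, AT1G04420 (1191608 to 1193884), annotated as an NAD(P)-linked oxidoreductase, was listed at 0 in all 4 libraries and at 30.3 to 59.2 FPKM in the rest. Their fitted differences of -8.66 ± 0.03 and -5.38 ± 0.04 (SE, log2 of FPKM + 1) depend on the pseudocount and are no measure of a fold. CRY2oe thus had the same missing neighbours as cry2-1, along with high CRY2. A change in CRY2 level and a difference at this locus that both lines carry cannot be told apart for any of the 905 genes.

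Beyond those neighbours the region did not stand out. Of 5 genes tested within 10 kb of CRY2, 2 were called, and of 40 within 100 kb the same number was called (5%). Within 500 kb it was 11 of 233 (4.72%) and within 1000 kb 23 of 481 (4.78%), against 4.27% of all nuclear genes. The gene models not called within 100 kb had differences from -0.67 (CRY2 itself, the average of a loss and a gain) to 2.33 for AT1G04425, which was high in CRY2oe alone.

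**Figure D2:**
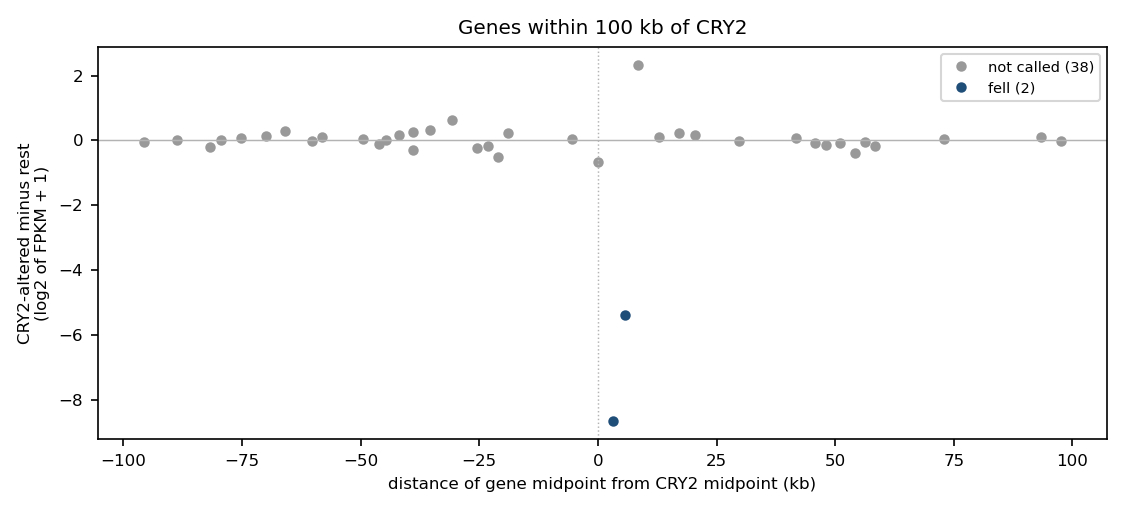
Difference of the CRY2-altered lines from the rest (y axis, log2 of FPKM + 1) by distance of the gene midpoint from that of CRY2 (x axis, kb), for 40 genes within 100 kb. The 2 genes that fell, at -8.66 and -5.38, are the neighbours on one side, and the 38 others include AT1G04425 at 2.33.

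Elsewhere in the genome, 4 genes separated the lines from the rest so sharply that they were called even with genotype as a random block. MRD1 (AT1G53480, chromosome 1, 19963047 to 19964712), a gene known for lower transcript in the methionine-accumulating mto1 mutant, was at 31.8 and 29.8 FPKM in cry2-1 and 28.9 and 32 FPKM in CRY2oe. It was between 0 and 0.145 FPKM in the rest, so MRD1 was on in both altered lines and near the detection floor in all 6 other libraries (limma adjusted p = 2.66e-07 with the random block). Its locus overlaps HEI10 (AT1G53490, 19963267 to 19966952), a crossover factor of meiosis, which rose with it from 0.532 to 0.861 FPKM in the rest to 2.9 to 5.04 FPKM. How the authors' counting treated strand is not stated in the labels, so fragments of the 2 overlapping genes may not be separated.

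AT3G52870 (chromosome 3, 19593173 to 19595822), annotated as an IQ calmodulin-binding motif protein, was at 10.8 and 11.4 FPKM in cry2-1 and 12.6 and 12.6 FPKM in CRY2oe. In the rest it was at 33.8 to 42.4 FPKM (log2 difference -1.64 ± 0.03 SE, limma adjusted p = 3.00e-08). AT4G08540 (chromosome 4, 5433645 to 5436524), annotated as a DNA-directed RNA polymerase II protein, was at 5.13 to 5.77 FPKM in the 4 libraries and at 15.1 to 16.3 FPKM in the rest, a difference of -1.36 ± 0.04. BPM6 (AT3G43700, chromosome 3, 15601868 to 15603888) encodes a BTB and MATH domain protein of the family that recruits substrates to CUL3 ubiquitin ligases. It was at 11.4 and 12.5 FPKM in cry2-1, 10.7 and 11 FPKM in CRY2oe and 3.93 to 5.06 FPKM in the rest, a difference of 1.16 ± 0.05. In each of these genes the altered libraries were tight and far from the rest, and WT, UBP13oe and ubp12ubp13 lay close together for AT4G08540 and BPM6. Each of these calls was kept in all 10 fits that left out 1 library. Leaving out a library cannot undo the separation, so those fits bear only on the adjusted p.

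**Figure D3:**
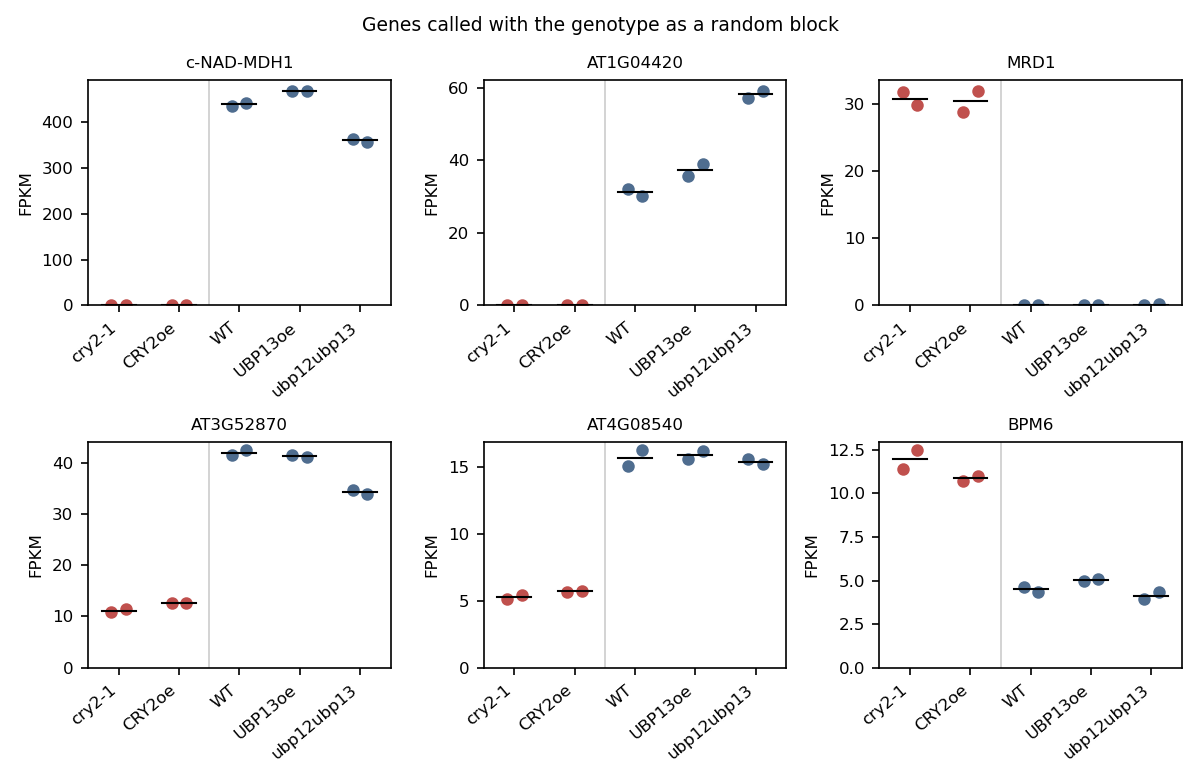
FPKM (y axis) of the 6 genes called with genotype as a random block, by genotype. Points are libraries, bars are genotype means, red marks the CRY2-altered lines and blue the rest. In every panel the 4 red points lie apart from the 6 blue points, as for AT4G08540 at 5.13 to 5.77 against 15.1 to 16.3 FPKM.

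The 250 bases before the annotated start of 3 of these genes, and of 2 iron and copper transport genes described further on that fell in both lines, are shown because the calls concern their transcript levels in both lines. MRD1 is left out because the same stretch lies in HEI10. Sequences are from the RefSeq TAIR10.1 genome, on the strand of the gene, at chr3:15601504-15601753 (plus) for BPM6, chr3:19595835-19596084 (minus) for AT3G52870, chr4:5433371-5433620 (plus) for AT4G08540, chr3:17268450-17268699 (plus) for COPT2 and chr4:9250344-9250593 (minus) for OPT3. Capitals mark matches on either strand to 7 short motifs named in the next paragraph.
BPM6: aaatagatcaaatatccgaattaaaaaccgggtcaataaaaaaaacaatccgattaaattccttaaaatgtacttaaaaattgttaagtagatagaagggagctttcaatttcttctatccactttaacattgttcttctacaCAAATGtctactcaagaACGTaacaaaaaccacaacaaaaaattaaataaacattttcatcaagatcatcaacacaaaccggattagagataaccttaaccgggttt
AT3G52870: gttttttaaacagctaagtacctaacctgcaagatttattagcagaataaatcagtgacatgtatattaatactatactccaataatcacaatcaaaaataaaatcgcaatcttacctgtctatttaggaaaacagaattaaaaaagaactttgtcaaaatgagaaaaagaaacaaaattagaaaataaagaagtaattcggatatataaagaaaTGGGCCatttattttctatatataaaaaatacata
AT4G08540: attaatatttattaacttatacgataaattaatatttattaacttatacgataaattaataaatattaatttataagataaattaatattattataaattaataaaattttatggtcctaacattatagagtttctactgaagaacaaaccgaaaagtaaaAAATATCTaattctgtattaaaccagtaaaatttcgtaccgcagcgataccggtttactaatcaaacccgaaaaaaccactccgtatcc
COPT2: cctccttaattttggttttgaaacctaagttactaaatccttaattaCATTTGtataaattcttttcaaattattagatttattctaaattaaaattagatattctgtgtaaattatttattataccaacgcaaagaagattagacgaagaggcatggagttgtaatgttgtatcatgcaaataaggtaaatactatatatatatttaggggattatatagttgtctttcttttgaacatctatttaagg
OPT3: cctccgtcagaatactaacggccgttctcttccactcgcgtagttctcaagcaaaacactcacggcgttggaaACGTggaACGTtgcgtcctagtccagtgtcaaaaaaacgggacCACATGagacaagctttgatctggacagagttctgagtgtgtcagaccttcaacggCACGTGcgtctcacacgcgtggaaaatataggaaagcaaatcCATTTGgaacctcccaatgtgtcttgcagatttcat

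The motifs were the G-box CACGTG, bound by PIF, HY5 and other factors, the E-box CANNTG, which contains the G-box, the ACE core ACGT, which lies within the G-box, the evening element AAATATCT of clock-regulated genes, the GATA motif GATAAG, the ABRE ACGTGTC and site II TGGGCC. OPT3 has a G-box and 3 E-box matches in its window (1 of them the G-box itself), COPT2 and BPM6 have 1 E-box match each, AT4G08540 has an evening element and AT3G52870 a site II match. Across 19777 nuclear genes with such a window, 7.43% hold a G-box, against 7.6% of 487 genes that rose and 8.66% of 358 that fell. For the E-box the shares were 56.5%, 57.1% and 59.8%. The evening element was in 4.85% of all windows, 4.31% of those that rose and 6.7% of those that fell, and site II in 16.4%, 12.9% and 11.7%. The GATA motif was in 12.6%, 14.4% and 10.1%, the ACE core in 44.5%, 45.2% and 45.3% and the ABRE in 4.29%, 3.29% and 3.35%. These shares describe letters in a short window and were not tested.

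A stretch of chromosome 3 had a higher share of its tested genes called than any other of 111 windows of 1 Mb with at least 20 genes tested. From 15000000 to 15999999 on chromosome 3, 9 of 48 genes rose and 1 fell (20.8%). The next highest window had 7.09% and the median window 4.24%. Besides BPM6 these were AT3G43690, the leucine-rich repeat gene AT3G43740, the transporter gene ZIFL2, the glutathione transferase gene GSTU27, the calmodulin gene CAM7, AT3G43850, AT3G43955 and AT3G44006, with AT3G44100 as the gene that fell. These genes were chosen after their values were seen. The 4 altered libraries had AT3G43740 at 45.6 to 55.3 FPKM and the rest had it at 16.5 to 26.6 FPKM (log2 difference 1.18 ± 0.03 SE). GSTU27 was at 111 to 123 against 53.2 to 80.1 FPKM, and CAM7 at 263 and 263 FPKM in cry2-1, 173 and 175 FPKM in CRY2oe and 98.4 to 131 FPKM in the rest. AT3G44006, a short locus, was at 39.5 and 41 FPKM in cry2-1 and 10.8 and 8.53 FPKM in CRY2oe, and was listed at 0 in 4 of the 6 other libraries and at 2.1 and 4.68 FPKM in the others. AT3G43850 was at 47.8 to 55.3 FPKM in the altered libraries, close to the 41.2 and 44.4 FPKM of WT, with ubp12ubp13 at 4.56 and 3.86 FPKM. AT3G43955 was at 4.58 to 4.95 against 3.36 to 4.17 FPKM, and its call was kept in 7 of the 10 fits that each left out 1 library. Of the 55 genes called with no genotype term, 7 lay in this window. Whether both lines carry a shared stretch of sequence there was not tested.

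A minority of iron and metal genes separated both lines from the rest. Plants take up iron at the root surface by reduction and transport through IRT1, store excess iron in plastid ferritins such as FER1, and move it through the phloem with OPT3. Of 35 measured members of the iron and metal list, 1 rose and 5 fell, which is 2.86% and 14.3% against 2.73% and 1.8% of all genes. The median difference of the list was -0.26 against 0.02 over all genes. With no genotype term 1 of the 6 was called, and with genotype as a random block 0 were. FER1 (AT5G01600) was at 487 and 564 FPKM in cry2-1 and 434 and 473 FPKM in CRY2oe. In WT it was at 275 and 284 FPKM, in UBP13oe at 170 and 113 FPKM and in ubp12ubp13 at 147 and 183 FPKM, so the altered libraries were higher than WT and WT was higher than the other lines (log2 difference 1.39 ± 0.12 SE, limma adjusted p = 5.63e-05, and 0.80 with WT alone as the rest).

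The genes that fell act in uptake, transport and regulation. OPT3 (AT4G16370) was at 17 and 18.8 FPKM in cry2-1 and 22.1 and 20.6 FPKM in CRY2oe, below the 30.5 to 44.3 FPKM of the rest (-0.91 ± 0.06 SE). It was also called with no genotype term (limma adjusted p = 0.0135). The copper transporter gene COPT2 (AT3G46900) was at 5.53 to 7.08 FPKM in the 4 libraries, at 13.1 and 9.98 FPKM in WT and at 34.7 to 40.5 FPKM in the other lines. IRT1 (AT4G19690) was listed at 0 in all 4 altered libraries. It was at 0.183 and 0.151 FPKM in WT but at 12.4 and 21.4 FPKM in UBP13oe and 64.8 and 55.6 FPKM in ubp12ubp13, so its difference lay between the altered lines and the 2 UBP lines, and it was not called against WT (limma adjusted p = 0.355). YSL2, of a family of metal-nicotianamine transporters, was at 8.4 to 12 against 13.5 to 23.5 FPKM, and BHLH101, a bHLH factor induced by iron deficiency, at 1.36 to 2.08 against 2.43 to 5.02 FPKM. The iron reductase gene FRO2 was not called, with 0.47 to 0.712 FPKM in the altered lines within the 0.418 to 17.1 FPKM of the rest. FER3 and FER4 overlapped the rest as well, so among ferritins only FER1 separated all 4 libraries. FRO5, another member of the reductase family, fell outside the list at 0.782 to 2.11 against 4.18 to 22.4 FPKM. With median-of-ratios rescaling 1 member of the list rose and 6 fell, and over nuclear genes scaled to a common sum 1 rose and 5 fell.

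Calls among nitrate and sugar genes were near the 4.54% of all genes, at 2.94% of the nitrogen, sulphur and phosphate list and 5.41% of the sugar list. NIA1 (AT1G77760), which encodes a nitrate reductase that turns nitrate into nitrite, was at 374 and 360 FPKM in cry2-1 and 352 and 407 FPKM in CRY2oe. It was at 189 and 172 FPKM in WT, 140 and 149 FPKM in UBP13oe and 156 and 134 FPKM in ubp12ubp13. The 4 libraries stood well above the other 6, and those of the 2 lines overlapped (1.26 ± 0.06 SE, limma adjusted p = 4.33e-06, and 0.000661 with no genotype term). NIA1 was the only called member among 34 of the nitrogen, sulphur and phosphate list. Among 37 sugar and starvation genes 2 rose: the sugar transporter gene STP4, at 62.4 to 64.5 against 42.1 to 50.3 FPKM, and DIN9, at 12.7 to 17 against 6.88 to 12.4 FPKM, which was lost after median-of-ratios rescaling. Of 27 central carbon genes, PCK1, which makes phosphoenolpyruvate during sugar production from stored lipid, was at 353 and 388 FPKM in cry2-1, 249 and 238 FPKM in CRY2oe and 159 to 216 FPKM in the rest. The other that rose, NADP-ME4, was at 150 to 168 against 119 to 148 FPKM. The share of the list that rose was 7.41%, and the median difference over all 27 members was -0.12. Outside the lists, the vacuolar sugar transporter gene SWEET17 fell, at 13.2 to 18.6 against 27 to 37.9 FPKM, and the beta-amylase gene CT-BMY, whose enzyme degrades starch in the chloroplast, was at 11.8 and 11.7 FPKM in cry2-1, 65.4 and 75.6 FPKM in CRY2oe and 83.7 to 198 FPKM in the rest.

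**Figure D4:**
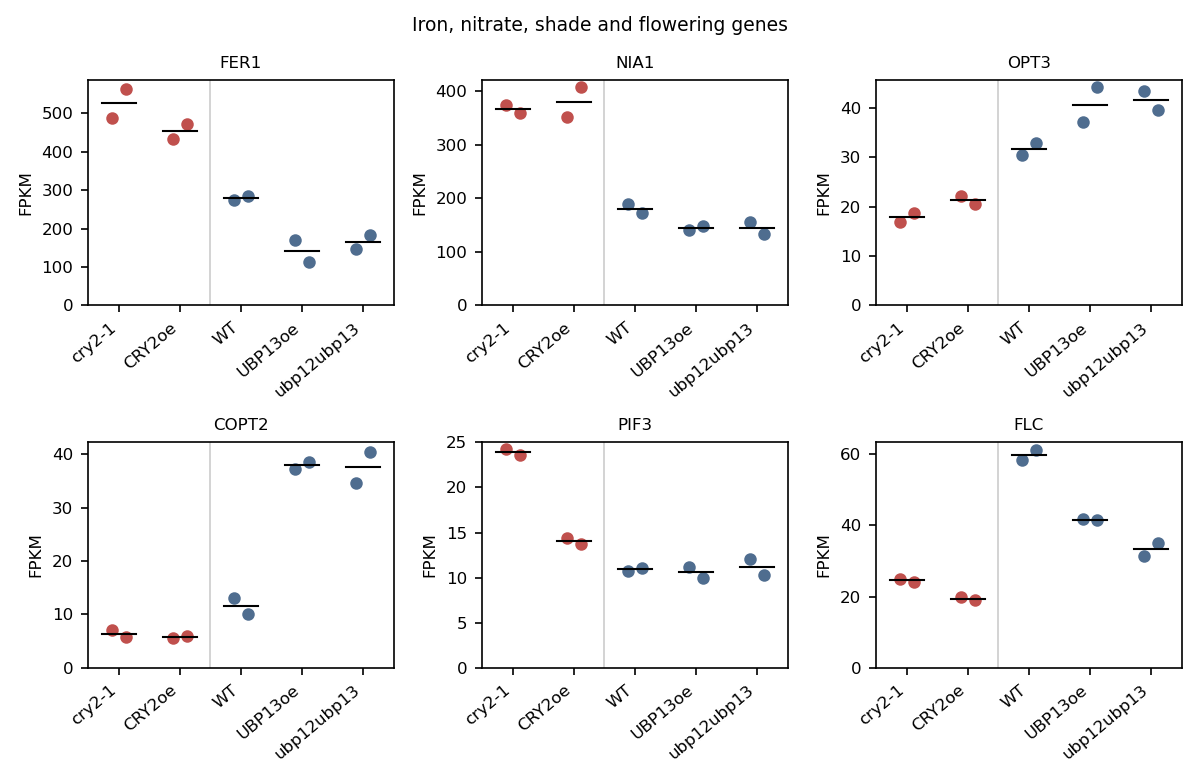
FPKM (y axis) of 6 genes of the iron, nitrate, shade and flowering lists by genotype. Points are libraries and bars are genotype means, with the CRY2-altered lines in red and the rest in blue. NIA1 lies at 352 to 407 FPKM in the 4 red points and at 134 to 189 FPKM in the blue ones, while PIF3 is higher in cry2-1 than in CRY2oe.

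Plastid-encoded transcripts were the largest group that rose. The plastid genome encodes subunits of the photosystems, of the ATP synthase and NADH dehydrogenase-like complexes, and of its own RNA polymerase and ribosome. Plastid genes held 16.9% and 17.6% of the summed FPKM in cry2-1 and 18.0% and 17.9% in CRY2oe. They held 8.57% and 11.2% in WT, 9.06% and 9.58% in UBP13oe and 16.2% and 15.5% in ubp12ubp13. All 4 altered libraries were above all 6 others, with ubp12ubp13 close below (17.6 ± 0.492% against 11.7 ± 3.33%, SD, n = 4 and 6, difference 5.95 points, two-sided exact permutation test p = 0.00952, the smallest that 210 arrangements can give). With the 5 genotypes as units the exact permutation p was 0.2, the smallest that 10 arrangements can give. The p with samples as units treats libraries of a genotype as independent, and the replicate block gave 0.02.

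Of 77 plastid genes tested, 51 rose and 0 fell, and 76 had a difference above 0 (from -0.10 to 2.06, median 1.20), where 2.73% of all genes rose. With no genotype term, and with genotype as a random block, 0 of the 77 were called. Among these 51 and the 6 mitochondrial genes that rose, the genotype of the rest nearest to the altered lines was ubp12ubp13 in 51, UBP13oe in 6 and WT in 0. RPOC1, a subunit of the plastid-encoded RNA polymerase, was at 59.4 and 56.7 FPKM in cry2-1 and 35.3 and 35.3 FPKM in CRY2oe. It was at 3.54 and 5.91 FPKM in WT, 11.3 and 13.6 FPKM in UBP13oe and 18.4 and 15.9 FPKM in ubp12ubp13 (2.06 ± 0.11 SE, limma adjusted p = 7.78e-06). The order from WT through UBP13oe and ubp12ubp13 to the altered lines recurred in ATPA, the alpha subunit of the ATP synthase, at 79.5 and 114, 178 and 228, 314 and 249, and 514 to 632 FPKM.

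By role, 20 of 21 tested polymerase and ribosome genes rose, with a median difference of 1.23. RPOB and RPOC2, like RPOC1, were higher in cry2-1 than in CRY2oe, while RPS2 was at 90.7 and 90.1 FPKM in cry2-1, 70.1 and 68.1 FPKM in CRY2oe and 11.3 to 40 FPKM in the rest. Of 43 photosynthesis genes of the plastid 23 rose, with a median of 1.20, among them ATPF, ATPH and ATPI of the ATP synthase, PSAA, PSAB and PSAC of photosystem I and 7 genes of the NDH complex. The remaining 20 included PSBA, the D1 reaction centre protein, at 155 to 337 FPKM against 115 to 405 FPKM, and RBCL, the large subunit of Rubisco, at 624 to 905 against 192 to 1260 FPKM. Both overlapped the rest. All of these values come from poly(A)-selected RNA, in which most plastid transcripts are poorly captured, and neither the share of polyadenylated plastid RNA nor its part in the differences was tested. In whole seedlings fewer cells of a type and less RNA per cell cannot be told apart.

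**Figure D5:**
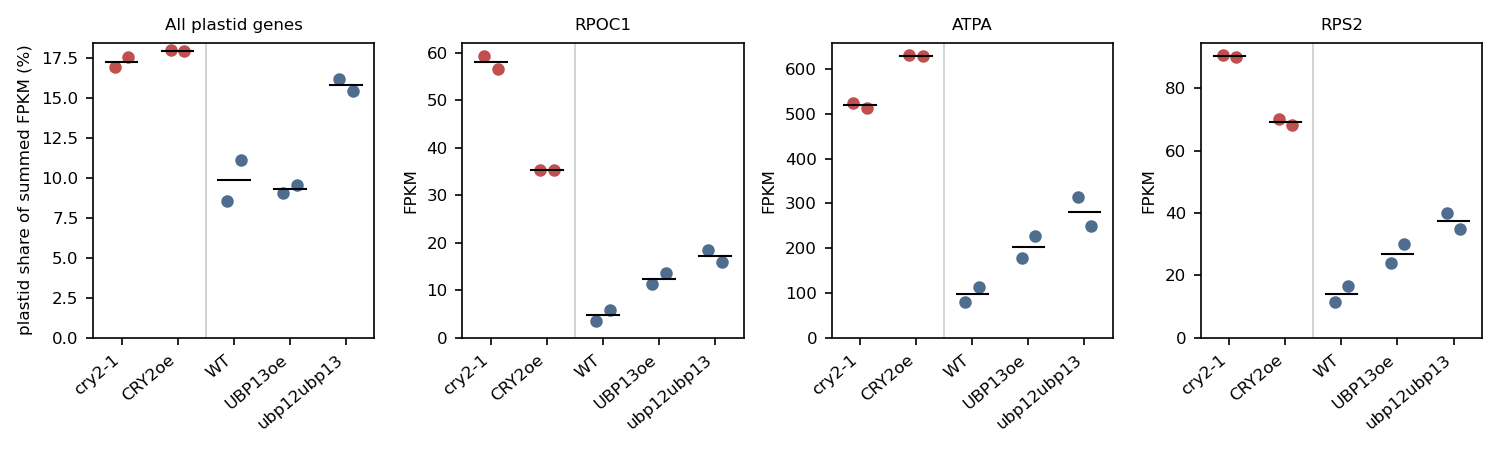
Plastid share of the summed FPKM (first panel, %) and FPKM of 3 plastid genes, by genotype. Points are libraries and bars are genotype means, with CRY2-altered lines in red. The share is 16.9% to 18.0% in the red points and 8.57% to 16.2% in the blue ones, and the separate genes leave a wider gap to ubp12ubp13.

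Of 26 mitochondrial genes tested, 6 rose (23.1% against 2.73% of all genes) and 0 fell. None of these calls was made with no genotype term or with the random block. NAD9, a subunit of respiratory complex I, was at 56.2 to 59.5 against 8.3 to 38.2 FPKM, and RPL16 and ATMG00090, loci that overlap each other, rose similarly, as did CCB206, ORF106F and ORF145C. The mitochondrial share of summed FPKM was 0.225 ± 0.0415% against 0.215 ± 0.0387% (SD, n = 4 and 6, two-sided exact permutation test p = 0.733), so a difference in the sum was not detected. Among 24 nuclear genes for the plastid expression machinery 0 rose, against 2.73% of all genes, and 2 fell (8.33% against 1.8%). These were PTAC5 at 37.4 to 38.9 against 40.2 to 55.6 FPKM and PTAC6 at 49.6 to 52.6 against 54.3 to 59 FPKM. PTAC5 overlapped the rest under both rescalings.

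Nuclear photosynthesis genes were lower on average, and the share called was near that of all genes, at 3.64% against 4.54%. Of 55, 0 rose and 2 fell (3.64% against 1.8% of all genes), with a median difference of -0.23. Plastocyanin gene DRT112 was at 1060 and 1100 FPKM in cry2-1, 1500 and 1480 FPKM in CRY2oe and 1510 to 2210 FPKM in the rest, a narrow gap for CRY2oe. Lhca5, a minor antenna protein of photosystem I, was at 77.3 and 78 FPKM in cry2-1, 110 and 115 FPKM in CRY2oe and 115 to 195 FPKM in the rest. Both calls ended over nuclear genes scaled to a common sum. The median of the list was -0.46 in cry2-1 and 0.02 in CRY2oe against the same rest, so the lower average was that of cry2-1. Of 24 carotenoid genes 2 fell (8.33% against 1.8% of all genes): BETA-OHASE 1, a beta-carotene hydroxylase that makes zeaxanthin, at 41.8 to 43.3 against 47.8 to 85.3 FPKM, and the lycopene cyclase gene LYC, at 38.2 to 46.4 against 50.9 to 61.1 FPKM. None of 30 tetrapyrrole genes and none of 20 light-stress genes was called, where 4.54% of all genes were.

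Calls among regulators of light responses were few, with 5.56% of the cryptochrome list and 8.33% of the light signalling list called against 4.54% of all genes, and none was called with no genotype term or with the random block. CRY1, the related photoreceptor, was at 79.7 and 81.4 FPKM in cry2-1 and 76.4 and 75.4 FPKM in CRY2oe, just below the 82.2 to 99.4 FPKM of the rest (-0.16 ± 0.03 SE, limma adjusted p = 0.00441). It was the only called gene among 18 of the cryptochrome list, and its libraries overlapped the rest under both rescalings. Of 36 light signalling genes, BBX31 fell, at 7.24 and 7.33 FPKM in cry2-1, 10.3 and 10.5 FPKM in CRY2oe and 12.6 to 18.2 FPKM in the rest. GNC, a GATA factor that promotes greening, was at 18.6 to 21.7 against 21.9 to 28.3 FPKM. It was not called against WT (limma adjusted p = 0.122). BBX23 rose at low levels, 0.23 to 1.89 against at most 0.202 FPKM, and its call was kept in 8 of the 10 fits that each left out 1 library.

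Within the PIF and shade list and the auxin list, every called gene rose. The lists do not hold every gene of these families, and UNE10, ETT, AT4G38840 and AT4G38860, outside them, fell. PIFs are bHLH factors that promote elongation in shade and are bound by cryptochromes, and HAT1 and HAT2 are homeodomain factors that respond to shade and auxin. Of 30 PIF and shade genes, 5 rose and 0 fell, with a median of 0.27, and after median-of-ratios rescaling 2 rose. The share that rose was 16.7% against 2.73% of all genes, but no member was called with no genotype term or with genotype as a random block. PIF3 was at 24.3 and 23.6 FPKM in cry2-1, 14.4 and 13.7 FPKM in CRY2oe and 10 to 12.1 FPKM in the rest (0.71 ± 0.05 SE). PIF5 was at 38.4 to 42.3 against 29.7 to 37 FPKM, HAT2 at 31.7 to 41 against 20.1 to 29.6 FPKM, HAT1 at 41.8 to 48.8 against 33.2 to 41 FPKM and IAA29 at 39.4 to 43.6 against 18.4 to 37.8 FPKM. HAT1 was not called against WT (limma adjusted p = 0.0659). PIF4 and PIL1 overlapped the rest. The list's median was 0.54 in cry2-1 and -0.01 in CRY2oe, so the genes that separated were a minority of the list, whose median lay above 0 in cry2-1 alone.

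Of 41 auxin genes 5 rose (12.2%), and 0 were called as rising after median-of-ratios rescaling, with no genotype term or with the random block. IAA1 and IAA29 are early auxin-induced repressors, WES1 (GH3.5) conjugates auxin to amino acids, AUX1 imports auxin and ARF1 is a response factor. WES1 was at 49.8 to 57.6 against 31.7 to 48.3 FPKM (0.46 ± 0.03 SE), AUX1 at 89 to 116 against 65.1 to 88.7 FPKM and IAA1 at 17.7 to 21.1 against 11 to 16.9 FPKM. IAA1 was not called against WT (limma adjusted p = 0.128). ARF1 was at 30.4 to 32.2 against 25.9 to 29.3 FPKM. In cell wall genes XTH33, of the family that cuts and rejoins xyloglucan, was the single call among 34 (2.94% against 4.54% of all genes). It was at 3.35 to 7.09 against 1.89 to 3.03 FPKM. None of 29 brassinosteroid and gibberellin genes and none of 49 cell cycle genes was called, where 4.54% of all genes were.

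Among flowering genes 12% were called and among clock genes 6.67%, against 4.54% of all genes, and none was called with no genotype term or with genotype as a random block. FLC (AT5G10140), a repressor of flowering, was at 25 and 24.1 FPKM in cry2-1 and 19.9 and 19 FPKM in CRY2oe. It was at 58.3 and 61.3 FPKM in WT, 41.8 and 41.5 FPKM in UBP13oe and 31.5 and 35.1 FPKM in ubp12ubp13, so every line was below WT and the altered lines were lowest (-0.96 ± 0.04 SE, limma adjusted p = 2.11e-06, and -1.41 against WT alone). The change was larger in CRY2oe than in cry2-1. Its relative MAF4 also fell, at 2.63 to 3.6 against 4.02 to 7.65 FPKM, and TEM1, another repressor, rose, at 75.3 to 93.5 against 48.3 to 70.5 FPKM. Of 25 flowering genes these were the 3 called. Of 30 clock genes, RVE1 fell, at 25.3 to 33.2 against 35.8 to 57.9 FPKM, and GI rose, at 18.1 to 20 against 12.4 to 17 FPKM, a call that ended after median-of-ratios rescaling. GI was not called against WT (limma adjusted p = 0.083). CDF1, a Dof factor that represses CONSTANS and is a target of GI-mediated degradation, was outside the lists and fell, at 4.72 to 7.21 against 9.13 to 13 FPKM. It was chosen after its values were seen, from the 55 genes called with no genotype term.

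Of the other lists, most had at most 1 call. The flavonoid, glucosinolate, jasmonate and heat shock lists had 5%, 5.56%, 4.35% and 5.56% called, near the 4.54% of all genes. PAL2, which starts phenylpropanoid synthesis, was at 18.4 to 21 FPKM, 28.8 and 24.9 FPKM in WT and 46.7 to 63.7 FPKM in the UBP lines. The myrosinase gene TGG2, whose enzyme hydrolyses glucosinolates, was at 5.04 to 6.12 FPKM, 7.29 and 10.2 FPKM in WT and 27.8 to 54.4 FPKM in the UBP lines, and was not called against WT (limma adjusted p = 0.0812). For both genes most of the gap lay between WT and the UBP lines. The same held for MYC4, a jasmonate response factor, at 9.21 to 10.5 against 10.7 to 17.6 FPKM, and for HSC70-1, a heat shock protein, at 657 to 683 against 691 to 1060 FPKM. Neither MYC4 nor HSC70-1 was called against WT (limma adjusted p = 0.0681 and 0.369). Of 30 deubiquitinase genes UBP10, UBP14 and UBP4 rose, by 0.29, 0.17 and 0.16 on the log2 scale. That is a share of 10% against 2.73% of all genes, and none was called with no genotype term or with the random block. UBP10 was at 8.93 to 9.22 FPKM in the altered libraries, just above the 8.79 and 8.92 FPKM of UBP13oe. UBP14 and UBP4 did not pass the threshold in CRY2oe minus the rest (limma adjusted p = 0.0957 and 0.106). They were not called against WT either (limma adjusted p = 0.133 and 0.0805). UBP4 was kept in 4 of the 10 fits that left out 1 library. Salicylate, abscisic acid and cold, and DNA silencing lists had 0 called of 25, 30 and 32 genes, where 4.54% of all genes were called.

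The remaining largest rises were mostly larger in cry2-1. HEC1, a bHLH factor of the HECATE family, was at 35.1 and 35.1 FPKM in cry2-1, 5.89 and 5.34 FPKM in CRY2oe and 2.31 to 4.68 FPKM in the rest. ORP4C, an oxysterol-binding protein gene, was at 129 and 143, 51.5 and 51.3, and 21.7 to 44.3 FPKM in the same order. AT5G57760 was at 41.4 and 49.9, 23 and 19.7, and 7.03 to 10.9 FPKM. GLYI7, a glyoxalase gene, AT1G72060, annotated as a serine-type endopeptidase inhibitor, and AT2G39980, of the HXXXD acyltransferases, followed the same pattern with CRY2oe nearer to WT. In AT5G64110, a peroxidase gene, at 148 and 174 FPKM in cry2-1, 181 and 172 FPKM in CRY2oe and 15.5 to 140 FPKM in the rest, the libraries of the 2 lines overlapped. FAR1 (AT5G22500), which makes fatty alcohols for suberin, was at 61.6 to 74.6 against 11.1 to 45.9 FPKM, and the cysteine proteinase gene AT1G29090 at 118 to 184 against 23.5 to 95.6 FPKM, with WT lowest.

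Among the remaining largest falls, AT5G24155 was at 1.74 and 2.71 FPKM in cry2-1, 9.01 and 9.74 FPKM in CRY2oe and 11.4 to 20.1 FPKM in the rest. SADHU3-2, a retroelement, was at 7.31 to 9.43 FPKM, 13.9 and 13.5 FPKM in WT and 60.5 and 63.8 FPKM in ubp12ubp13. AT1G52000, a mannose-binding lectin gene, was at 1.57 to 1.76 FPKM, close to the 2.15 and 2.52 FPKM of WT, and was not called against WT (limma adjusted p = 0.223). AT1G47395 and AT1G47400, neighbouring loci, both fell. AT1G47395 was at 0.428 to 1.14 against 2.87 to 11.6 FPKM and AT1G47400 at 0.137 to 0.146 against 1.28 to 3.35 FPKM. The altered values of AT1G47400, a locus of 470 bp, are near the detection floor. Both genes were also among the 55 called with no genotype term. So were the fatty-acid acyltransferase gene DGAT3, at 142 to 237 against 323 to 432 FPKM, and the LEA gene SAG21, at 986 to 1310 against 600 to 661 FPKM.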

How the data were processed

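Poly(A) RNA of whole seedlings was sequenced in 10 libraries from directional kits, per the labels' protocols. The authors deposited FPKM values (fragments scaled by transcript length and by mapped fragments) for 33557 genes in each library, per the file headers. The submitters' processing notes name STAR, Cufflinks 2.1.1 and the TAIR10 genome. Coordinates of genes are those of the files, on TAIR10 and counted from 1. Names came from RefSeq, where 32810 locus tags matched.

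Failed or skipped estimates (15 entries at 10 loci) were set missing, and 19957 genes reaching 1 FPKM in 2 libraries or more were used, of which 19954 had a value for the comparison. FPKM are not counts, so no count model was used. Depth was estimated from steps between low values of 2929 genes without introns. Of the 148 to 225 low values used per library, 96.2% to 98.6% came out as whole fragments within 0.1. Depth was chosen to make these values whole, so that share is no separate check. Such depths and floors cover counting error only. Values were tested as log2(FPKM + 1), with which fold changes of low genes are understated, by limma 3.58.1 (R 4.3.3) with trend, fitting each genotype its own mean (degrees of freedom 5 residual, 3.15 prior), two-sided, with Benjamini-Hochberg adjustment over all genes. The fit was also run on simulated libraries, drawn independently around the mean of each gene over all libraries. These held no differences between genotypes except changes added to the CRY2-altered set. They therefore cannot show how the calls hold up where genotypes differ. Shares were compared by exact permutation with scipy 1.17.1. Other tools were Python 3.11.15, numpy 2.4.6, pandas 2.3.3 and matplotlib 3.10.9.

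The genes compared and the 32 lists (994 symbols, of which 920 were matched and kept) were chosen with earlier results of these data known. Named genes were CRY2, CRY1, UBP12 and UBP13, the 12 largest nuclear rises and falls at 5 FPKM or more and 300 bp or longer, up to 3 called genes per list with the smallest adjusted p, called genes within 100 kb of CRY2 and the 3 largest called changes of each organelle genome. Another 12 were added after their values were seen, as were the remaining called list members and genes of the fit without genotype that the text gives. Replicate numbers did not pair the libraries, so no block was used in the main comparison. Promoter windows are the 250 bases before the RefSeq gene start on TAIR10.1. Alternatives changed the pseudocount (0.1), filter, scaling, design, the rest compared and the libraries kept, and counts per 1 Mb window and shares by genotype were added after seeing the data.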

Additional observations from a re-analysis of the deposited data

Results flagged for a closer look

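In each gene below, all 4 CRY2-altered libraries lay beyond the other 6, and the size of the change also differed between the lines (limma adjusted p of 0.05 or less for CRY2oe minus cry2-1, with the difference given on the log2 scale of FPKM + 1). A negative value for a gene that rose, or a positive value for one that fell, means a larger change in cry2-1.

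Among genes that rose, the difference was -2.45 for HEC1, -1.39 for ORP4C, -1.06 for AT5G57760, -0.85 for AT2G39980, -0.74 for GLYI7 and -0.69 for AT1G72060. For growth and hormone genes it was -0.73 for PIF3, -0.56 for XTH33, -0.36 for AUX1 and -0.16 for WES1. It was -0.96 for BBX23, -0.25 for TEM1, -0.60 for PCK1 and -0.32 for DIN9. The plastid polymerase subunits gave -0.78 for RPOB, -0.72 for RPOC2 and -0.70 for RPOC1. In the stretch of chromosome 3 it was -0.59 for CAM7, -0.24 for AT3G43740 and -0.13 for GSTU27. All of these genes were higher in cry2-1 than in CRY2oe.

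Among genes that fell, the difference was 2.48 for CT-BMY, 1.70 for AT5G24155, 0.53 for Lhca5, 0.46 for DRT112, 0.46 for BBX31, 0.34 for CDF1, 0.29 for RVE1, 0.24 for LYC and 0.17 for AT3G52870, all lower in cry2-1. FLC, at -0.32, is the exception: it was lower in CRY2oe.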

How the results depend on the processing

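The number of genes that rose and fell, 545 and 360, was 36 and 19 with no genotype term and 2 and 4 with genotype as a random block. With the adjusted p alone, 7680 genes became 55 and 6. The counts were 3990 and 1325 with WT alone as the rest, where all 4 libraries need only lie beyond 2, and 1397 and 1260 with each line called against the rest by its own test. With nuclear genes scaled to a common sum 819 rose, and the cause was not tested. Leaving out 1 library gave 570 to 774 rises and 372 to 548 falls (546 and 548 without WT replicate 1 and 2). The separation is easier to meet with 1 library fewer. In those fits 5837 to 7793 genes were called by adjusted p alone and 5063 to 7867 between CRY2oe and cry2-1. The fit with a replicate block gave 542 rises and 359 falls, with 900 of the 905 calls shared. Correlations of same-numbered libraries ran from -0.0884 to 0.146, so the numbers are only names.

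The plastid share difference of 5.95 points ranged from 5.33 to 6.85 without 1 library, and its exact permutation p was 0.02 with the replicate block and 0.2 with genotypes as units. The mitochondrial difference of 0.00976 points had a range of -0.00365 to 0.0235 and turned to -0.000555 and -0.00365 without cry2-1 replicates 2 and 1. UBP13, at -0.03 and not called, was at 0.33 against WT alone (limma adjusted p = 0.00104). UBP12, at -1.08 with overlapping libraries, was at 0.20 against WT alone (limma adjusted p = 0.00983) and at 0.36 with its failed estimate taken as 0 (limma adjusted p = 0.863). Of 1743 values of named genes under alternatives, 177 lost their call and these 3 changed direction with an adjusted p of 0.05 or less on at least one side. Low genes are limited by depth, since 3 fragments on 1 kb equal up to 0.19 FPKM.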

Other observations

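Of the 55 genes called with no genotype term, several belong to none of the lists described above, and they were chosen after their values were seen. IAGLU, which attaches glucose to auxin, rose, at 46.2 to 67 FPKM in the 4 CRY2-altered libraries against 26.3 to 31.5 FPKM in the rest. The nearby loci AT4G38840 and AT4G38860 on chromosome 4 fell, AT4G38840 at 30.8 to 38.5 against 51 to 99 FPKM and AT4G38860 at 22.2 to 31.2 against 38.4 to 49.1 FPKM. The homeobox gene KNAT3 fell, at 20.8 to 22.5 against 26.9 to 30 FPKM, as did the RING finger gene RHA2A, at 29.7 to 35.5 against 44.3 to 52.8 FPKM, and the transcription factor gene MYB47, at 1.56 to 3.08 against 4.6 to 10.6 FPKM. The aquaporin gene NIP1;2 rose, at 31.5 to 34.8 against 18.6 to 26.7 FPKM, and so did DGR1, at 30 to 36.6 against 21.2 to 23.6 FPKM.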
